A study of Mus musculus with 27 samples.

Results

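Ion channel genes were followed through a peroxide pulse in mouse embryonic stem cells. Genes of the voltage-gated and related channel families were taken by their symbols: potassium (Kcn), sodium (Scn) and calcium (Cacn) channel subunits, ClC chloride channels and exchangers (Clcn, Clcnk), transient receptor potential channels (Trpc, Trpm, Trpv) and the hyperpolarization-activated Hcn channels. The pattern matched 165 of the 38352 genes in the deposited tables, and 33 of the 165 reached 1 FPKM (fragment counts scaled by transcript length and library size) in at least 3 of 27 libraries; these 33 are the members described here. The cells were E14Tg2a, an established mouse embryonic stem cell line, with genotype WT in all groups, grown on gelatin in serum with LIF and the 2i inhibitors. Treated cells received 500 µM H2O2 for 30 min, as the treatment protocol gives it (the series' own description has the same figure in mM), and then spent medium taken from untreated cells. The 9 groups of 3 biological replicates came from 3 independent time courses: an untreated start (0 h), 7 treated times of 0.5, 2, 4, 6, 8, 10 and 24 h, the earliest collected directly after the exposure, and an untreated end (24 h). The untreated start served as control for treated times to 10 h and the untreated end for the treated 24 h group, as the submitters set the comparison. No group had only the medium change, so the peroxide and the change of medium cannot be told apart. No untreated group was taken between 0 h and 24 h, so in the comparisons to 10 h hours in culture cannot be told apart from them either. These comparisons all share the same 3 untreated libraries.

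Voltage-gated potassium, sodium and calcium channels are built from a pore-forming alpha subunit that senses the membrane potential and from auxiliary subunits that set its gating, its traffic to the surface and its place in the membrane. Inward rectifier and K2P (tandem pore domain) potassium channels carry background current that holds the resting potential. The ClC family holds plasma membrane chloride channels and intracellular chloride-proton exchangers, which work beside the proton pump in endosomes and lysosomes. TRPM proteins are cation channels, some of which pass magnesium and calcium. Pluripotent stem cells are not excitable cells, and most of these genes are known for their work in nerve, muscle, kidney and lysosome.

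The libraries were alike in depth: the relative depth, read from the steps between low FPKM values, was 0.983 to 1.102, and 11516 to 12607 genes reached 1 FPKM in each. All 10 embryonic stem cell markers were above 1 FPKM in every library, with Pou5f1 between 402 and 938 FPKM. Of 15 neuron markers, 10 stayed under 1 FPKM in every library, Rbfox3, Map2, Snap25 and Syt1 among them; the list's summed level, most of it Tubb3, Stmn2 and Nefl, was 155 to 195 FPKM in untreated cells at 0 h and 97.9 to 101 at 6 h. Summed hepatocyte markers were 47.9 to 67.7 FPKM at 0.5 h, 43.0 to 59.2 in untreated cells at 24 h, 47.0 in 1 library at 6 h and 53.8 and 62.3 in 2 at 8 h, against 1.03 to 7.07 in all others, and 6 of those 15 markers stayed under 1 FPKM. Astrocyte markers summed to 8.81 to 12.6 FPKM at 0 h and 26.96 to 29.4 at 8 h. Most of both sums was Gja1 (6.17 to 9.25 and 12.4 to 14.4) and Aldh1l1 (2.32 to 2.70 and 7.55 to 7.96), above 1 FPKM in every library. Gfap, another of these markers, was at 1.67 to 2.90 FPKM in 17 libraries, all those of 0.5 h, 8 h and untreated 24 h included. It was at 0.0902 to 0.363 in the other 10, which hold all 0 h and 4 h libraries and replicate 1 of 6 h. Lcn2 divided the libraries in the same way, while Gja1, Aldh1l1 and S100b did not. The part of these transcripts in the results was not tested. Replicate 3 of the untreated 0 h group and replicate 1 at 2 h stood apart within their groups by a trend of expression with GC content. To a lesser degree, so did replicate 3 at 8 h and at 10 h. These trends were 0.39, 0.35, 0.21 and 0.22 log2 units per 10 percentage points. All 4 h libraries had a trend of 0.14 to 0.22, the 6 h libraries of 0.11 to 0.12 and the untreated 24 h libraries of 0.026 to 0.194. In bulk RNA, fewer cells with a transcript and less of it per cell cannot be told apart.

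Few channel genes were well expressed before the exposure. In untreated cells at 0 h, 7 members had a mean above 5 FPKM, 11 were under 1 FPKM on average, and 7 were under 1 FPKM in every one of the 3 libraries. Cacng7, an auxiliary subunit of calcium channels and AMPA receptors, had the highest mean, 12.4 ± 5.12 FPKM (SD, n = 3), with 9.44, 9.43 and 18.3 FPKM in the libraries. Kcnk5, an acid-sensitive background potassium channel, followed at 10.9 ± 2.64. Trpm7, Clcn6, Clcn7 and Clcn2 had means of 6.88 ± 3.08, 6.69 ± 2.55, 6.52 ± 1.83 and 6.25 ± 0.877 FPKM. These neighbours in the order differed by less than their spread, and replicate 3 was the lowest library for 5 of the 6 named so far and the highest for Cacng7. At the other end stood Kcnj14 with 0.334 ± 0.166 and Scn2b with 0.489 ± 0.289 FPKM.

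**Figure D1:**
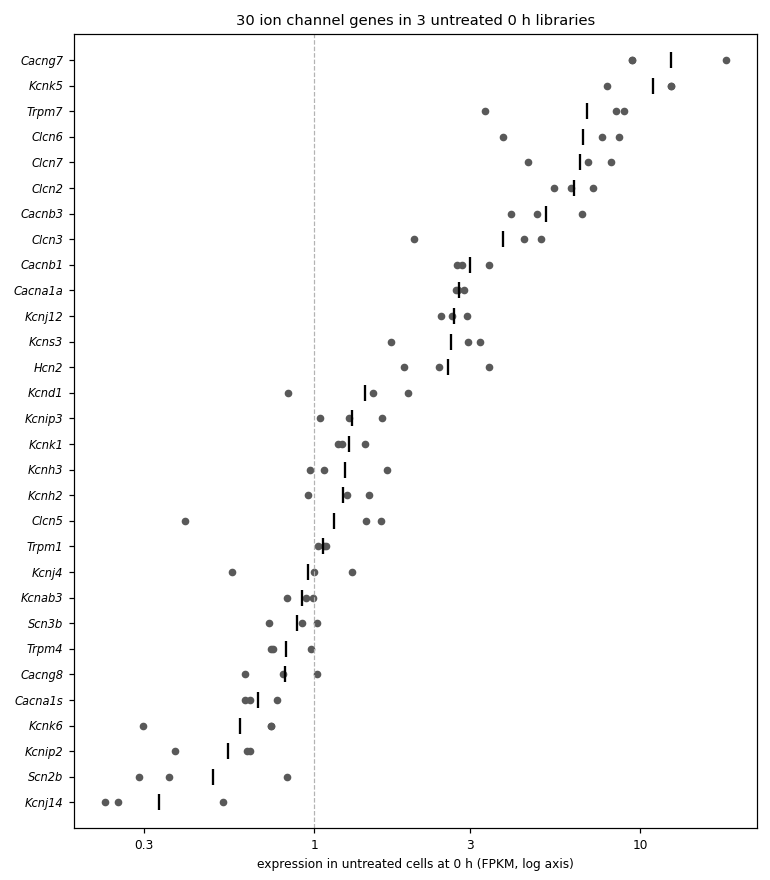
Expression of 30 of the 33 members in the 3 untreated 0 h libraries (points, FPKM on a log axis) with their mean (bar); the dashed line is 1 FPKM. Cacng7 at a mean of 12.4 FPKM stands at the top and Kcnj14 at 0.334 FPKM at the bottom, and 10 of these means lie left of the line.

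The share of genes detected differed between families, which was not tested. The ClC family had 6 of its 9 named genes among the members, whereas 5 of 16 families had none: the 10 sodium channel pore genes, the 12 calcium- or sodium-activated potassium channels, the 4 alpha2delta subunits, the 7 TRPC and the 6 TRPV genes. Sodium channel beta subunits were thus measured without a pore subunit at the limit; Scn3a, the highest pore gene, reached 0.814 FPKM in its highest library. The voltage-gated potassium pore family had 5 of 39. Of the 132 genes that did not qualify, 128 were under 1 FPKM in every library and 53 under 0.1. Just outside the limit, Trpc2 reached 1 FPKM in 2 libraries and Hcn3, Trpv2 and Cacng6 in 1; just inside, Trpm4 and Cacng8 reached it in 3, with highest values of 1.06 and 1.23 FPKM. 13 members were at or above 1 FPKM in all 27 libraries.

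Changes were tested with limma on log2(FPKM + 1) over all 13614 genes that met the same limit, with Benjamini-Hochberg adjustment; a gene is called at an adjusted p below 0.05. Changes are on that scale throughout, which understates those of low genes, and ± after a change is its SE. Background shares are those of this fit, and none was computed for the alternative runs. At 0.5 h no member was called, against 0.0147% of all tested genes higher and 0.0661% lower; 3 members had an unadjusted p under 0.05, and none was called under any alternative run. At 2 h limma again called no member (background 0.499% higher and 0.566% lower), with 4 at an unadjusted p under 0.05; 1 was called with both untreated groups as control, 1 without the 4 libraries that stand apart, 2 without untreated 0 h replicate 3 and 6 with library weights. Between the untreated groups 1 member was higher at 24 h and none lower (background 0.426% and 0.279%), with 4 at an unadjusted p under 0.05; 2 were higher and 5 lower with library weights, 2 and 4 without the 4 libraries that stand apart, 2 and 2 with correction for GC content and length, and none in a fit to these 6 libraries alone.

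From 4 h on, members moved in both directions. At 4 h 10 of 33 were higher and 4 lower (30.3% and 12.1%, against 14.2% and 12.1% of all tested genes). At 6 h 14 were higher and 7 lower (42.4% and 21.2%, background 22.3% and 20.0%). At 8 h 17 were higher and 3 lower (51.5% and 9.09%, background 29.2% and 11.6%), and at 10 h 16 and 1 (48.5% and 3.03%, background 22.2% and 9.43%). The median change of the members was 0.14 at 6 h, 0.29 at 8 h and 0.38 at 10 h, beside medians of 0.00, 0.11 and 0.11 over all tested genes. A gene that meets the limit only through the treated libraries is bound to differ; Kcnj14, Kcnk6, Scn2b, Kcnip2 and Cacna1s were at 1 FPKM in no untreated library, and their rises below are in part fixed by the limit. The 18 members at 1 FPKM or more in all 3 untreated 0 h libraries were therefore also counted: 8 were higher and 4 lower at 6 h, with 20.1% and 23.2% of the 10822 genes with that property. The comparisons to 10 h share their untreated libraries, so calls shared between times were not counted.

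These counts rested in part on the scale and the model. The share of all tested genes called was not computed for the alternative runs, so their counts have no background. Median-of-ratios scaling moved the median of all genes from 0.11 to -0.02 at 8 h and to -0.01 at 10 h, and left 13 members higher and 6 lower at 8 h; correcting libraries by GC content and gene length gave 15 and 12 at 6 h, 13 and 8 at 8 h and 13 and 4 at 10 h. A fit to only the 6 libraries compared called 8 members at 4 h, 9 at 8 h and 3 at 10 h. Same-numbered libraries of the untreated 0 h group and of 8 h or 10 h deviated together, and with the replicate number as a block in such a fit 16 members were called at 8 h and 16 at 10 h, 16 and 14 of them also called without it.

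**Figure D2:**
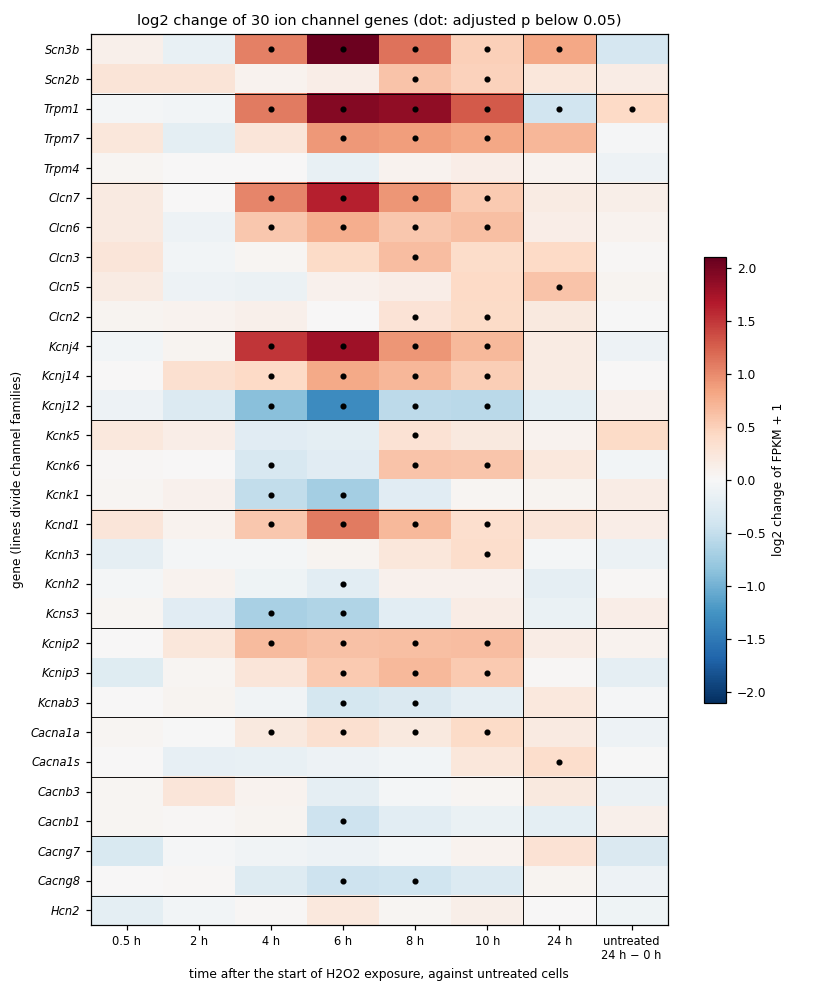
Log2 change of FPKM + 1 (colour) for 30 of the 33 members in rows, grouped by family, against untreated 0 h (0.5 h to 10 h), against untreated 24 h (24 h) and between the untreated groups; a dot marks an adjusted p below 0.05. The first 2 columns hold no dot, 6 h holds 18, and the darkest cells belong to Scn3b, Trpm1, Kcnj4 and Clcn7.

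Sodium channel beta subunits are single-pass membrane proteins that modulate sodium channel gating and act in cell adhesion, and one of them, Scn3b, had the largest rise of a member at 6 h. Scn3b (chr9:40269217-40291618, GRCm38), known as a p53-inducible gene, was measured at 0.913, 1.02 and 0.726 FPKM at 0 h and 0.512, 0.814 and 0.750 at 2 h. It stood at 2.48, 3.23 and 3.03 FPKM at 4 h, 7.28, 6.97 and 6.31 at 6 h and 3.25, 3.43 and 2.79 at 8 h. The 6 h libraries did not overlap with those of any other time. Of these libraries only replicate 3 held hepatocyte transcripts, while replicates 2 and 3 had Gfap above 1 FPKM. The part of these transcripts was not tested. The change at 6 h was 2.06 ± 0.09 (adjusted p = 2.13e-13), 7.73 times the untreated mean, and it was 0.50 by 10 h. Scn2b took another course, with 0.288, 0.821 and 0.359 FPKM at 0 h, 0.501, 0.633 and 0.734 at 6 h and 1.44, 1.11 and 1.17 at 8 h. It was not called at 6 h (0.14 ± 0.12, adjusted p = 0.388) and was higher at 8 h (0.60 ± 0.12, adjusted p = 0.000456), where its 3 libraries, which made up part of the 6 that reached 1 FPKM, lay above the untreated ones.

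**Figure D3:**
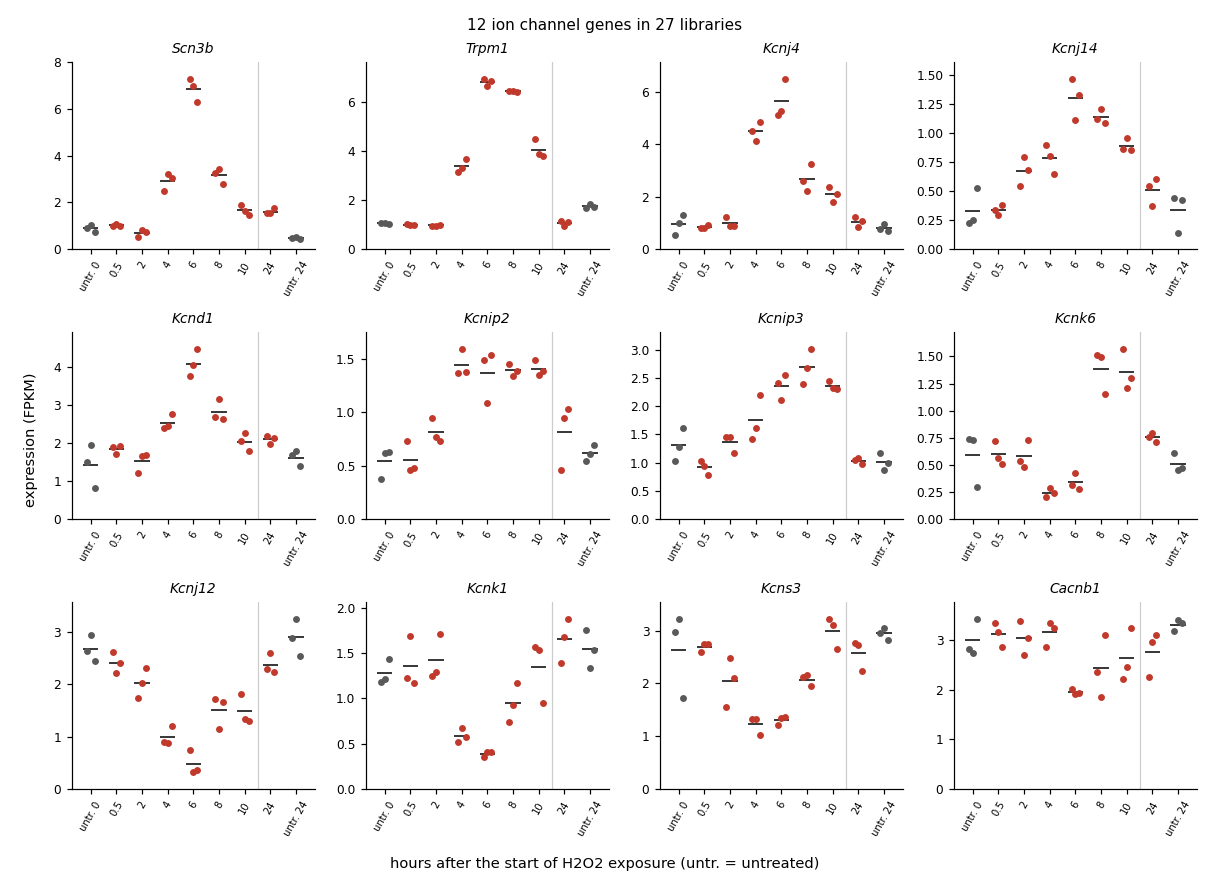
Expression (FPKM) of 12 members in each of the 27 libraries (points; grey untreated, red treated) with group means (bars), by hours from the start of exposure; the line separates the 24 h groups. Scn3b, Trpm1, Kcnj4 and Kcnd1 are highest at 6 h, Kcnk6 is low at 4 h and 6 h and highest at 8 h and 10 h, and Kcnj12, Kcnk1, Kcns3 and Cacnb1 are lowest at 4 h or 6 h.

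Of the TRPM channels, Trpm1, a cation channel known from melanocytes and from ON bipolar cells of the retina, took a broad course through 6 h and 8 h. It was at 1.07, 1.09 and 1.02 FPKM in the untreated 0 h libraries, 0.958, 0.949 and 1.01 at 2 h and 3.16, 3.31 and 3.69 at 4 h. It then reached 6.95, 6.65 and 6.86 FPKM at 6 h, 6.47, 6.47 and 6.41 at 8 h and 4.49, 3.88 and 3.81 at 10 h. From 4 h to 10 h no library overlapped with the untreated ones, and the 6 h and 8 h libraries stood above those of 4 h and 10 h. The changes at 6 h and 8 h were 1.93 ± 0.06 and 1.86 ± 0.06 (adjusted p = 1.67e-15 and 1.06e-14), with 6.44 and 6.09 times the untreated mean. Trpm1 is also the single member that differed between the untreated groups, with 1.68, 1.85 and 1.74 FPKM at 24 h (0.42 ± 0.06, adjusted p = 0.000784).

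Trpm7, a magnesium- and calcium-permeable channel joined to a kinase domain, was measured at 8.89, 8.40 and 3.33 FPKM at 0 h and 13.8, 11.7 and 13.0 at 6 h. It stood at 14.9, 13.9 and 9.52 FPKM at 8 h and 14.1, 14.6 and 8.35 at 10 h. Untreated replicate 3 was the lowest of these, and the replicate 3 libraries at 8 h and 10 h were the lowest of their groups; each 8 h and 10 h library lay above the untreated library of its own number. Changes of 0.90 ± 0.25, 0.88 ± 0.25 and 0.82 ± 0.25 passed the test at 6 h, 8 h and 10 h (adjusted p = 0.00627, 0.00854 and 0.0178). Without untreated replicate 3 they were 0.52, 0.49 and 0.43 and none passed (adjusted p = 0.0563, 0.0770 and 0.150). With the number as a block in a fit to the compared libraries the 8 h and 10 h changes passed (adjusted p = 0.0181 and 0.00771). That block was added because same-numbered libraries of these groups were seen to deviate together, so it gives no independent support. Replicate 3 at 0 h, 8 h and 10 h are all among the libraries that stand apart, and the labels tie no number to a time course. Without all 4 libraries that stand apart the 6 h change of 0.52 passed (adjusted p = 0.000105). This is the same estimate, from the same 6 h and 0 h libraries, as without untreated replicate 3 alone. Only the spread shared over all groups differs, so this pass gives no independent support either. Trpm4, a calcium-activated monovalent cation channel, was called at no time and ranged from 0.589 to 1.06 FPKM over all libraries.

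Of the 6 ClC members, 2 were called higher at 4 h, 4 at 8 h and 3 at 10 h, and none was called lower to 10 h (14.2%, 29.2% and 22.2% of all tested genes were higher); several of these calls rest on untreated replicate 3, as given for each gene. Clcn7, the lysosomal chloride-proton exchanger, rose most. It was measured at 6.91, 8.12 and 4.52 FPKM at 0 h, 5.82, 6.62 and 6.93 at 2 h and 13.6, 13.8 and 14.4 at 4 h. It reached 23.9, 20.2 and 21.6 FPKM at 6 h and stood at 13.7, 12.9 and 12.3 at 8 h and 10.3, 9.88 and 9.22 at 10 h. Every treated library from 4 h to 10 h lay above the untreated ones, and the 6 h libraries above all others. The change at 6 h was 1.64 ± 0.12 (adjusted p = 4.99e-10), 3.36 times the untreated mean; without untreated replicate 3, the lowest, it was 1.43.

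Clcn6, an exchanger of late endosomes, was at 7.63, 8.63 and 3.80 FPKM at 0 h, 9.82, 9.57 and 10.2 at 4 h and 13.3, 9.74 and 11.9 at 6 h. The treated libraries at 4 h and 6 h lay above the untreated ones, of which replicate 3 was the lowest. The 6 h change was 0.77 ± 0.20 (adjusted p = 0.00358) and 0.46 without that replicate (adjusted p = 0.0301), but the calls at 4 h, 8 h and 10 h (0.56, 0.57 and 0.63) were lost without it (0.25, 0.26 and 0.33; adjusted p = 0.256, 0.234 and 0.164).

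Other ClC members moved late or little. Clcn3, an endosomal exchanger, was at 4.95, 4.41 and 2.02 FPKM at 0 h and 6.88, 6.96 and 4.97 at 8 h, where all treated libraries were above the untreated ones (0.65 ± 0.21, adjusted p = 0.0183); without untreated replicate 3 the change was 0.35 (adjusted p = 0.158). Clcn2, a plasma membrane chloride channel, was higher at 8 h and 10 h (0.29 and 0.40 ± 0.09, adjusted p = 0.0187 and 0.00264), with 9.08, 7.39 and 9.24 FPKM at 10 h against 6.13, 7.18 and 5.43 at 0 h. Its libraries at 10 h were all above the untreated ones; the 8 h call was lost without untreated replicate 3 (0.21, adjusted p = 0.105), and both were lost with the replicate block in a fit to the compared libraries (adjusted p = 0.147 and 0.0758). Clcn2 shares 85 and 82 exon bases with 2 genes on the other strand. Clcn5, the endosomal exchanger of the kidney proximal tubule, was not called to 10 h.

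**Figure D4:**
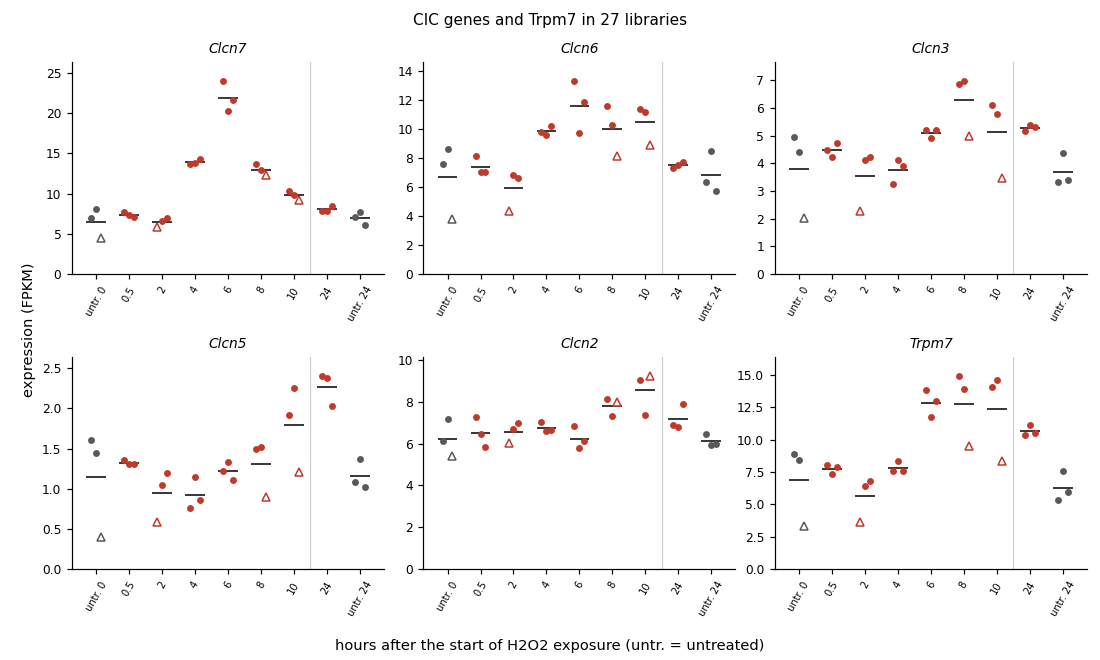
Expression (FPKM) of 5 ClC genes and Trpm7 in the 27 libraries (points; grey untreated, red treated) with group means (bars); triangles are the 4 libraries with the strongest trend with GC content in their groups. The triangles are the lowest point of their group in every panel but that of Clcn2, and the 6 h points of Clcn7 (20.2 to 23.9 FPKM) lie above all its others.

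Promoter windows were available for 22 of the 33 members in the RefSeq table for GRCm38.p6 (250 bases before to 50 after the start of each gene). The motif TCACGTG, searched on both strands, is the core of the element bound by the TFEB family in lysosomal gene promoters and contains the E-box CACGTG. It was found in the windows of 4.29% of 27025 genes, expressed or not, and in those of 3 of the 22 members, Clcn7, Clcn6 and Trpm7. Because these are the only members with that motif and all 3 were called higher at 6 h, their sequences are shown from 75 bases before to 25 after the start, with TCACGTG and its reverse complement in capitals.
Clcn7 (chr17:25133316-25133415, + strand): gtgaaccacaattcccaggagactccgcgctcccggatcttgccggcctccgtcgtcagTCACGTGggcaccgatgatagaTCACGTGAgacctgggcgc
Clcn6 (chr4:148038789-148038888, - strand): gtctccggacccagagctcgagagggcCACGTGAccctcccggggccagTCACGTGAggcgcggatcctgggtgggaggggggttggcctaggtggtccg
Trpm7 (chr2:126876237-126876336, - strand): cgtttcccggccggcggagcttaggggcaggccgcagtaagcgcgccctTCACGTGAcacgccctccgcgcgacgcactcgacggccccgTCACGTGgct
Each holds 2 sites, 1 of them the palindrome TCACGTGA. In Clcn7 they begin 16 bases before and 6 after the start, in Clcn6 48 and 26 before, and in Trpm7 26 before and 15 after. Of the 19 other members with a window, 4 were higher and 6 lower at 6 h, beside 22.3% and 20.0% of all tested genes. The 6 h call of Trpm7 was lost without untreated replicate 3. How many of all tested genes with the motif were higher was not counted. CACGTG stood in 5 of 22 windows (8.09% of genes), TGANTCA, the AP-1 site, in 1 (8.97%), TGACNNNGC, the core of the antioxidant response element, in 6 (13.99%), and the p53 decamer in 2 (9.55%). The shares of genes are over all genes with a window, while the members all met the expression limit. No share was computed for the tested genes alone, so these values do not show an excess among members. A match is a description of the window and was not tested as a site.

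Inward rectifier genes split. Kcnj4, a strong inward rectifier of neurons and heart, was measured at 0.557, 0.999 and 1.30 FPKM at 0 h, 4.51, 4.13 and 4.83 at 4 h and 5.12, 5.28 and 6.48 at 6 h. It had come down to 2.35, 1.80 and 2.11 FPKM by 10 h. All treated libraries from 4 h to 10 h were above the untreated ones, and the change was 1.51 ± 0.13 at 4 h and 1.77 ± 0.13 at 6 h (adjusted p = 1.02e-08 and 3.41e-10). Kcnj14, which reached 1 FPKM only in the 6 libraries of 6 h and 8 h, was at 0.227, 0.249 and 0.525 FPKM at 0 h and 1.47, 1.11 and 1.33 at 6 h with no overlap (0.79 ± 0.10, adjusted p = 1.25e-06). Kcnj12, another strong inward rectifier, went down: it was at 2.64, 2.94 and 2.44 FPKM at 0 h, 0.890, 0.885 and 1.20 at 4 h and 0.738, 0.333 and 0.361 at 6 h. It stood at 1.71, 1.15 and 1.65 FPKM at 8 h and 1.82, 1.33 and 1.30 at 10 h, in each case below all untreated libraries. It fell by 1.32 ± 0.12 on the log2 scale at 6 h (adjusted p = 8.04e-09), the largest fall of a member against untreated cells, to 0.179 times the untreated mean. The plot of 12 members shows the opposite courses of Kcnj4 and Kcnj12.

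Of the 3 K2P channel genes, 2 were lower at 4 h and 1 at 6 h, and 2 were higher at 8 h and 1 at 10 h, beside 12.1% and 20.0% of all tested genes lower and 29.2% and 22.2% higher at these times. Kcnk1, a weak background potassium channel, was measured at 1.18, 1.21 and 1.43 FPKM at 0 h, 0.516, 0.668 and 0.572 at 4 h and 0.354, 0.412 and 0.404 at 6 h. The 4 h and 6 h libraries lay below all untreated ones (changes of -0.52 ± 0.11 and -0.71 ± 0.11, adjusted p = 0.00143 and 3.10e-05), and at 10 h, with 1.56, 1.53 and 0.944 FPKM, the groups overlapped. Kcnk1 shares 179 exon bases with an antisense gene, and whether the authors' counting used strand is not given in the sources used here. Kcnk6, a channel of endosomes and lysosomes, was the only member called in both directions against the untreated 0 h group. It was at 0.735, 0.734 and 0.299 FPKM at 0 h, 0.207, 0.283 and 0.243 at 4 h, 1.51, 1.496 and 1.15 at 8 h and 1.57, 1.20 and 1.30 at 10 h. All 4 h libraries were below and all 8 h and 10 h libraries above the untreated ones, and these 8 h and 10 h libraries are the only 6 in which Kcnk6 reached 1 FPKM; the changes were -0.34 ± 0.10, 0.60 ± 0.10 and 0.58 ± 0.10 (adjusted p = 0.0145, 7.63e-05 and 0.000162). The fall at 4 h was lost when untreated replicate 1 or 2, or treated replicate 1, was left out. Kcnk5 was higher at 8 h (0.31 ± 0.12, adjusted p = 0.0393) with overlapping libraries, and without untreated replicate 3 the change was 0.11 (adjusted p = 0.344); the block within the compared libraries also ended this call (adjusted p = 0.112).

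Among voltage-gated potassium pore genes, Kcnd1, an A-type channel subunit, and Kcns3, a silent subunit that modifies Kcnb channels, went opposite ways. Kcnd1 was at 1.51, 1.94 and 0.831 FPKM at 0 h, 2.40, 2.46 and 2.76 at 4 h and 3.76, 4.05 and 4.49 at 6 h. No 4 h or 6 h library overlapped with the untreated ones, and the 6 h change was 1.09 ± 0.12 (adjusted p = 2.61e-07); the call at 10 h (0.35) was lost without untreated replicate 3 (0.16, adjusted p = 0.290) and with the block within the compared libraries (adjusted p = 0.0833). Kcns3 was measured at 2.96, 3.21 and 1.72 FPKM at 0 h, 1.32, 1.33 and 1.02 at 4 h, 1.21, 1.34 and 1.36 at 6 h and 3.22, 3.11 and 2.65 at 10 h. It lay below all untreated libraries at 4 h and 6 h (-0.69 ± 0.13 and -0.63 ± 0.13, adjusted p = 0.000266 and 0.000341), although untreated replicate 3 was low, and overlapped with them at 10 h.

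Kcnh3, a subunit of brain potassium channels, was higher at 10 h (0.38 ± 0.11, adjusted p = 0.0135) and Kcnh2, the gene of the hERG channel, lower at 6 h (-0.22 ± 0.08, adjusted p = 0.0382), both with libraries that overlapped with the untreated ones. The Kcnh3 call was lost under 7 of 18 alternatives, the block within the compared libraries among them (adjusted p = 0.0515). The Kcnh2 call was lost under 6 of 17.

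Auxiliary subunits of these channels included 2 that bind the Kcnd pore, Kcnip2 and Kcnip3, of which Kcnip3 is also known as the calcium-regulated repressor DREAM. Kcnip2 was at 0.372, 0.620 and 0.632 FPKM at 0 h, 1.37, 1.59 and 1.37 at 4 h and 1.49, 1.35 and 1.38 at 10 h, with all treated libraries from 2 h to 10 h above the untreated ones. It was called from 4 h to 10 h at 0.67, 0.62, 0.64 and 0.65 (SE 0.11; adjusted p = 6.22e-05, 7.62e-05, 7.37e-05 and 0.000104), a level course where Kcnd1 came down after 6 h. Kcnip2 reached 1 FPKM in 13 libraries, none of them untreated, so its rises are in part fixed by the limit. Kcnip3 was at 1.04, 1.27 and 1.61 FPKM at 0 h and 2.40, 2.68 and 3.02 at 8 h, its highest group, with no overlap (0.69 ± 0.10, adjusted p = 1.73e-05). Kcnab3, a cytoplasmic beta subunit with an aldo-keto reductase fold, was at 0.824, 0.939 and 0.993 FPKM at 0 h and 0.480, 0.445 and 0.521 at 6 h. Its 6 h libraries were all lower, and it shares 147 exon bases with an antisense gene (-0.37 ± 0.11, adjusted p = 0.00702).

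Calcium channel subunits moved in both directions. Cacna1a, the pore of P/Q-type channels, was at 2.75, 2.72 and 2.87 FPKM at 0 h, 3.91, 3.81 and 3.60 at 6 h and 3.98, 4.28 and 3.79 at 10 h. Its treated libraries from 4 h to 10 h were all above the untreated ones, by 0.20, 0.34, 0.20 and 0.41 (SE 0.06; adjusted p at 10 h 2.55e-05). The correction for GC content and length turned the change at 8 h to -0.06, the calls at 4 h and 8 h were lost under 5 alternatives each, and 435 of its exon bases are shared with an antisense gene. Cacnb1, the beta subunit best known from skeletal muscle, was at 2.83, 2.73 and 3.43 FPKM at 0 h and 2.01, 1.92 and 1.93 at 6 h, all lower (-0.43 ± 0.12, adjusted p = 0.00560), and at 10 h, with 2.22, 2.47 and 3.24 FPKM, the groups overlapped; it shares 80 exon bases with a transcript of the other strand. Cacng8, an AMPA receptor auxiliary subunit near the expression limit, was lower at 6 h and 8 h (-0.43 ± 0.13 and -0.41 ± 0.13, adjusted p = 0.00866 and 0.0129); the 8 h call was lost without untreated replicate 3 (-0.33, adjusted p = 0.0680). Cacnb3, Cacng7 and Hcn2, a pacemaker channel gene, were called at no treated time. Cacng7 ranged from 7.68 to 18.3 FPKM and Hcn2 from 1.72 to 3.44 over the 27 libraries; for Hcn2 the change at 6 h was 0.23 ± 0.14 (adjusted p = 0.202).

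The 6 h and 2 h groups were also compared, which leaves out the untreated libraries. In this comparison 13 members were higher and 9 lower at 6 h (39.4% and 27.3%, background 20.4% and 19.7%). Scn3b (2.22 ± 0.09), Trpm1 (1.99 ± 0.06), Kcnj4 (1.72 ± 0.13) and Clcn7 (1.62 ± 0.12) were among those that rose most, with adjusted p-values between 8.77e-16 and 6.80e-10. Kcnj12 (-1.04 ± 0.12), Kcnk1 (-0.79 ± 0.11), Cacng8 (-0.46 ± 0.13), Cacnb1 (-0.45 ± 0.12) and Kcnab3 (-0.44 ± 0.11) fell most, with adjusted p-values between 3.03e-07 and 0.00608. All of these had libraries that did not overlap. The 2 h group holds replicate 1, which stands apart by its trend with GC content and has the highest Cacng8 value, 1.23 FPKM. Without that library the Cacng8 call was lost, as it was in a fit to the compared libraries alone. Cacnb3, uncalled against 0 h, was lower here (-0.43 ± 0.12, adjusted p = 0.00744).

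At 24 h fewer members were called. Against untreated cells of the same time, 4 members were higher and 1 lower (background 8.63% and 4.28%). Scn3b stood at 1.53, 1.55 and 1.75 FPKM in treated and 0.461, 0.543 and 0.433 in untreated cells (0.82 ± 0.09, adjusted p = 5.05e-06). Its treated libraries were all higher, and the untreated 24 h libraries were below those of 0 h. Clcn5, at 2.40, 2.37 and 2.02 FPKM against 1.08, 1.37 and 1.02, was higher (0.60 ± 0.18, adjusted p = 0.0350), as was Cacna1s, the pore of the skeletal muscle calcium channel, at 1.04, 1.11 and 1.28 FPKM against 0.734, 0.704 and 0.544 (0.37 ± 0.11, adjusted p = 0.0330). Cacna1s shares 1309 of its 6550 exon bases with an antisense gene. It reached 1 FPKM in no untreated library, so its rise is in part fixed by the limit. The treated and untreated libraries of neither gene overlapped, but the Cacna1s call was lost when any 1 of the 6 libraries was left out, and the Clcn5 call for 5 of the 6. Trpm1 was the member that was lower, with 1.15, 0.964 and 1.12 FPKM in treated and 1.68, 1.85 and 1.74 in untreated cells (-0.41 ± 0.06, adjusted p = 0.000130). Without the 4 libraries that stand apart, none of them in these groups, 12 members were called higher and 4 lower at 24 h. The 24 h changes are the same in that fit, and only the spread shared over all groups differs. The trend with GC content was 0.026 to 0.194 in the untreated 24 h libraries and -0.030 to 0.001 in the treated ones. With correction for GC content and length, 4 members were higher and 4 lower. For neither of these fits was the share of all tested genes called computed. Hepatocyte transcripts were present in the untreated 24 h libraries (43.0 to 59.2 FPKM summed) and near absent from the treated ones (1.16 to 1.72), and their part was not tested.

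The 24 h difference was then tested against that at 10 h, each with its own untreated group. No member had a higher difference at 24 h and 3 a lower one (background 2.95% and 5.75%). Trpm1 turned from 1.30 at 10 h to -0.41 at 24 h (difference -1.71 ± 0.08, adjusted p = 6.07e-11). Its treated 24 h libraries (1.15, 0.964 and 1.12 FPKM) were near the untreated 0 h level (1.07, 1.09 and 1.02), and its untreated 24 h group was higher than that of 0 h. Kcnip3 went from 0.55 to 0.02 (-0.53 ± 0.14, adjusted p = 0.0243) and Kcnip2 from 0.65 to 0.15 (-0.50 ± 0.15, adjusted p = 0.0459), the last lost under 15 of 22 alternatives. Kcnip2 reached 1 FPKM in no untreated library, so its 10 h change is in part fixed by the limit. For Scn3b (0.32 ± 0.13, adjusted p = 0.133) the test did not pass.

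**Figure D5:**
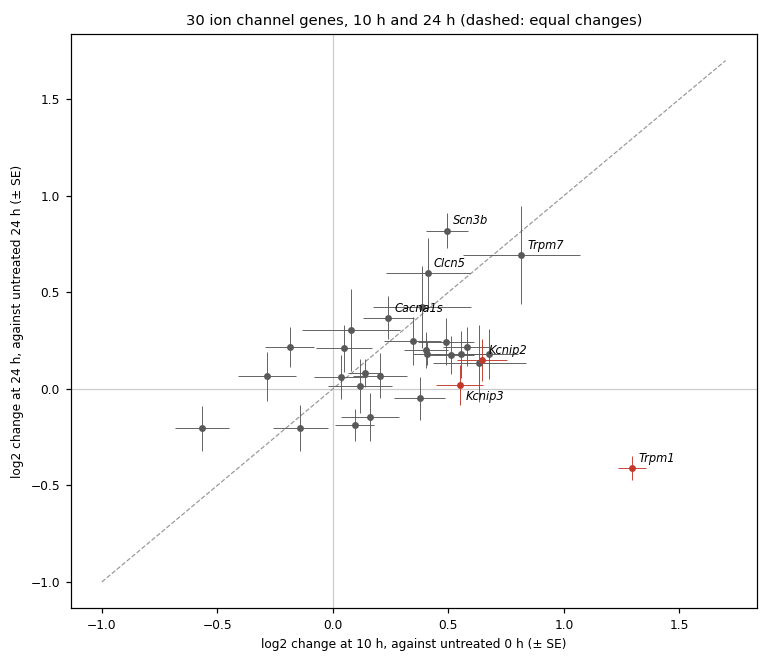
Log2 change at 10 h against untreated 0 h (x axis) and at 24 h against untreated 24 h (y axis) for 30 of the 33 members, with SE bars; red marks the 3 whose changes differ between the times. Trpm1 lies alone at 1.30 and -0.41, while Scn3b (0.50 and 0.82) lies above the dashed line of equal changes.

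Other genes of ion transport were counted from lists set apart from the members. Of 40 tested channel genes outside the name rule, 17 were higher and 10 lower at 6 h (median change 0.10). Cnga3, a cyclic nucleotide-gated channel subunit, went from a mean of 0.752 to 6.01 FPKM (2.00 ± 0.09), P2rx7, an ATP-gated channel, from 2.07 to 8.13 (1.59 ± 0.12), and Tmem38a, a potassium channel of the endoplasmic reticulum, from 4.39 to 11.01 (1.16 ± 0.11). Of 23 pumps and transporters 7 were higher and 3 lower (median 0.02), led by the potassium-chloride cotransporter gene Slc12a4, from 9.12 to 31.8 FPKM (1.72 ± 0.13). Of 13 partners and regulators 3 were higher and 4 lower (median -0.16), with the kinase gene Sgk1 at 55.7 and 24.4 FPKM (-1.13 ± 0.12). The lysosomal genes Ostm1 and Mcoln1 were singled out after their values were seen: Ostm1, the beta subunit of Clcn7, rose from 2.14 to 3.26 FPKM (0.45 ± 0.09, adjusted p = 0.000371) and Mcoln1, a lysosomal calcium channel, from 3.10 to 7.72 (1.09 ± 0.09, adjusted p = 1.15e-09). Of 15 genes of REST, the repressor known to silence neuronal genes outside the nervous system, and its cofactors, 1 was higher and 4 lower (median -0.09): Rcor2 went from 45.9 to 14.4 FPKM (-1.60 ± 0.09), while Rest itself, at 30.1 and 20.2, was not called (-0.49 ± 0.22, adjusted p = 0.0834). All 6 h values of these lists are read beside 22.3% of tested genes higher and 20.0% lower.

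In the authors' deposited table of comparisons, 10 members carry the mark of significance at 4 h, 13 at 6 h, 9 at 8 h, 3 at 10 h and 2 at 24 h, and none at 0.5 h or 2 h. All members marked in the authors' deposited table were also called here at the same time. Scn3b is among those of 24 h, with a fold change of 3.36 in the authors' deposited table. The authors' mark does not rest on their q-value alone, unlike the calls made here by adjusted p. In the authors' deposited table Clcn7 at 8 h (fold 1.99, q-value 0.00432) and Trpm1 at 24 h (fold 0.613, q-value 6.17e-11) are unmarked. Marks and calls come from the same libraries, and the share of all genes that the authors marked was not counted.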

How the data were processed

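Poly(A) RNA from mouse E14Tg2a cells was sequenced in 27 libraries (9 groups of 3) from stranded libraries, per the labels' protocols. Tools listed without versions in the submitters' processing notes are HISAT2, StringTie, cutadapt, FastQC and edgeR, with the build mm10; the sources used here do not give whether counting used strand. Deposited by the authors were FPKM values per gene and library in 7 tables of 38352 genes, beside their own fold change as a ratio, its log2 value and p-values and q-values for each comparison. The 15 FPKM columns that recur between tables did not differ. Counts of fragments were not used, and precision rests on the 3 replicates.

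FPKM columns were joined by gene identifier, and the 13614 genes that reached 1 FPKM in 3 or more libraries were tested. A limma model (version 3.58.1, R 4.3.3, trend option on) of log2(FPKM + 1) had 1 mean per group over all libraries, with Benjamini-Hochberg adjustment within each of 10 comparisons and a threshold of 0.05; the fit was tested on simulated data. Plots and tables used Python 3.11.15 with pandas 2.3.3 and matplotlib 3.10.9. Gene positions are from GENCODE M21 (GRCm38, the same assembly as mm10) and promoter windows from RefSeq. The members and gene lists were chosen with earlier results of these data known. Genes named are the 5 largest rises and falls among called members per comparison, the highest untreated member of each family, those nearest the expression limit, members given by level, and up to 3 called genes of each other list; Ostm1, Mcoln1 and Rest, and further members described for completeness, were named after their values were seen. Results of 3 members are counted but not reported here by name. Alternatives were pseudocount 0.1, no filter or 5 FPKM, median-of-ratios scaling, no trend, the compared libraries alone, a replicate block with and without scaling, GC and length correction, library weights, both untreated groups as control, and leaving out the 4 libraries that stand apart or each library in turn. The labels tie no replicate number to a time course. Deviations of same-numbered libraries from their group means correlated at over 0.1 in all 3 pairs for 3 of 36 pairs of groups: untreated 0 h with 8 h (0.464 to 0.691) and with 10 h (0.558 to 0.797), and 8 h with 10 h (0.301 to 0.668). A replicate block within the compared libraries was therefore added for 8 h and 10 h after the data were seen.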

Additional observations from a re-analysis of the deposited data

Results flagged for a closer look

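The difference from untreated cells at 24 h was unlike that at 10 h for 3 members, by limma's test of the difference between the times. For Trpm1 the change at 24 h minus that at 10 h was -1.71, with all 3 treated libraries above their untreated group at 10 h and all 3 below it at 24 h; its untreated 24 h libraries were above those of 0 h, by 0.42 on the log2 scale. For Kcnip3 this difference was -0.53 and for Kcnip2 -0.50. Both genes were above untreated cells in all 3 libraries at 10 h, and at 24 h their libraries overlapped with the untreated ones. Kcnip2 reached 1 FPKM in no untreated library, so its 10 h rise is in part fixed by the limit.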

How the results depend on the processing

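Of 103 single-gene changes called, none changed sign under any alternative except Cacna1a at 8 h, which was -0.0615 after correction for GC content and length. Many calls were lost, however: a fit to only the libraries compared kept 59 and lost 44. Among those lost there were Clcn6, Cacng8 and Kcns3 at 6 h, Kcns3 at 4 h, Scn2b at 8 h, and Kcnk6 at 8 h and 10 h. Leaving out 1 library at a time ended the call in 77 of 636 runs of these changes. Apart from untreated 0 h, 8 h and 10 h, the replicate numbers did not pair the libraries in these data: over all groups 35 of 108 correlations between same-numbered libraries were over 0.1. The replicate block over all libraries kept 102 of the 103 calls and left 0, 0, 14, 21, 20, 17 and 5 members called at the 7 treated times in order, as without it; within the compared libraries alone it kept 30 of 37 calls at 8 h and 10 h, with 16 members called at each. Counts of members called that moved by more than 1.5 times are given next. No share of all tested genes called was computed beside them. With GC and length correction they were 8 at 24 h, 8 for the 24 h against the 10 h difference and 4 between untreated groups. With both untreated groups as control, 1 was called at 2 h. A filter of 5 FPKM, which leaves fewer members to test, gave 6, 7, 10, 8 and 3 at the 5 times from 4 h on, 1 for the difference between 24 h and 10 h and 9 for 6 h against 2 h. Library weights gave 6 at 2 h, 14 at 24 h, 9 for the difference and 7 between untreated groups. Scaling gave 3 between untreated groups, also with the block, pseudocount 0.1 gave 2 there, and no filter gave 3 at 24 h. Fitting only the compared libraries, with fewer samples to estimate the spread, gave 8, 9, 3 and 8 at 4 h, 8 h, 10 h and 24 h, 1 for the difference and 0 between untreated groups. Without the 4 libraries that stand apart, 1 was called at 2 h, 16 at 24 h, 9 for the difference and 6 between untreated groups. Where no reason is given, the cause was not tested. Leaving out 1 library at a time gave 0 at 0.5 h, 0 to 2 at 2 h, 12 to 15 at 4 h, 19 to 23 at 6 h, 14 to 21 at 8 h, 14 to 19 at 10 h, 3 to 6 at 24 h, 1 to 7 for the difference, 1 to 2 between untreated groups and 20 to 22 for 6 h against 2 h. The difference for Kcnip3 was lost under 7 of 22 alternatives. Levels near 1 FPKM limit what can be seen for 11 members, and FPKM allow no counting interval.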
